A study of Mus musculus with 12 samples.

Results

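Chemokines are small secreted proteins that direct the movement of cells, and their receptors are G protein-coupled receptors of leukocytes, endothelium and many tumor cells. A chemokine binds heparan sulfate on the cell surface, is sensed by a receptor coupled to inhibitory G proteins, and can be removed by atypical receptors that take up the ligand without signaling through G proteins. In tumors the family is known for drawing in macrophages, neutrophils and lymphocytes, and Cxcl12 with its receptors Cxcr4 and Ackr3 for its roles in vessel growth and in keeping cells in their niche.

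The family was taken by gene name, as every gene named Ccl, Cxcl, Ccr, Cxcr or Ackr with a number, together with Cx3cl1, Xcl1 and Xcr1 and without Ccr2, Cx3cr1 and pseudogenes. This gave 65 of the 54232 genes in the count table, with 60 different symbols, because 7 identifiers on unplaced scaffolds include copies of Ccl19, Ccl21 and Ccl27 genes. There were 44 ligands, 17 signaling receptors and 4 atypical receptors. Cxcl11 was left out because GENCODE M21 lists it as a polymorphic pseudogene, as were Ccl19-ps1 and Ccl19-ps3.

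The RNA came from 12 whole subcutaneous tumors, grown in young adult athymic nude mice from SVR, a mouse endothelial line that forms angiosarcoma. Daily gavage began after 3 to 7 days of tumor growth and delivered vehicle (control), 1 mg/kg trametinib, 3 mg/kg cediranib or both agents at these doses (combination), with 3 tumors in each group. Trametinib inhibits the kinase MEK and cediranib inhibits the VEGF receptors. The strain label of all samples reads C57BL/6, nude mice lack a functional thymus, tumor and stroma are both murine, and SVR is a single line, so the RNA of tumor cells, stroma and skin was counted together. Tumors were treated until ulceration or a size limit, or taken after a set time, and which of these applied to the sequenced tumors is not stated. Exome probes were used to capture the RNA, in the authors' account because much of it was degraded, and a count of 0 can therefore also mean that a gene was poorly captured.

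Chemokine classes are named for the spacing of their first cysteines, which can be read from the coding sequence, and a stretch of 4 ligands is shown because the results for ligands turn on these genes. They are written 5′ to 3′ on the coding strand of GRCm38, from GENCODE M21 transcripts, with the first pair of cysteine codons in capitals. Cxcl12 and Cxcl14 have 3 bases, which is 1 codon, between these codons (CXC class), Ccl5 has 0 (CC class) and Cx3cl1 has 9 bases (CX3C class).
Cxcl12, exon 2, plus strand, chr6:117171496-117171528: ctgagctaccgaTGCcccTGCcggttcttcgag
Cxcl14, exons 1 and 2, minus strand, chr13:56295903-56296113 with an intron within: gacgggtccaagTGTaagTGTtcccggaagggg
Ccl5, exon 2, minus strand, chr11:83529230-83529259: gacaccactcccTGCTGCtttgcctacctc
Cx3cl1, exon 2, plus strand, chr8:94778039-94778077: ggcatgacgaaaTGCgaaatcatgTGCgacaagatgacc

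The libraries held between 9478865 and 11666094 counts. Levels are given as CPM, counts scaled to library size, with TMM factors that correct for library composition. A count of 0 allows up to 3 counts, which equalled 0.251 to 0.349 CPM (counting error only). The 12 endothelial markers listed summed to 210 to 441 CPM in controls, with 52.8 to 114 CPM in trametinib, 123 to 331 CPM in cediranib and 33.9 to 85.3 CPM in combination treated tumors. Tumor cells and host vessels share such markers, so the sums cannot tell them apart. Pecam1, Cdh5, Tie1 and Flt1 of this list were lower in trametinib treated tumors than in controls. Skeletal muscle markers stood apart in the second control and the second trametinib tumor, with sums of 17640 and 24570 CPM, and results are also given without these 2 libraries where a call changed. Nothing states that the tumors of a group are independent of each other beyond their separate labels, so the tests measure the spread between these samples.

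Only 9 of the 65 genes passed the filter on low counts and were tested, and 8 of them are described here, namely Cxcl12, Cxcl14, Ccl5, Cxcr4, Ccr1, Cxcr2, Ackr3 and Ackr4. Family expression was concentrated in a few of them. Ackr3 made up 38.1% of all counts in the family, Cxcl12 31.5% and Cxcl14 16.1%, while Ccr1 accounted for 0.792%. Per kilobase of gene length, the mean over 12 libraries was 24.8 CPM for Ackr3, 19.7 for Cxcl14, 8.37 for Cxcl12, 7.22 for Ccl5 and 5.49 for Cxcr4. The next genes in this order were Ccl12 at 0.715, Ccl8 at 0.682 and Ccr1 at 0.604 CPM per kilobase. The libraries of Ackr3 and Cxcl14 overlapped in level, as did those of Cxcl12, Ccl5 and Cxcr4 and those of Ccl12, Ccl8 and Ccr1, and capture may differ between genes.

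**Figure D1:**
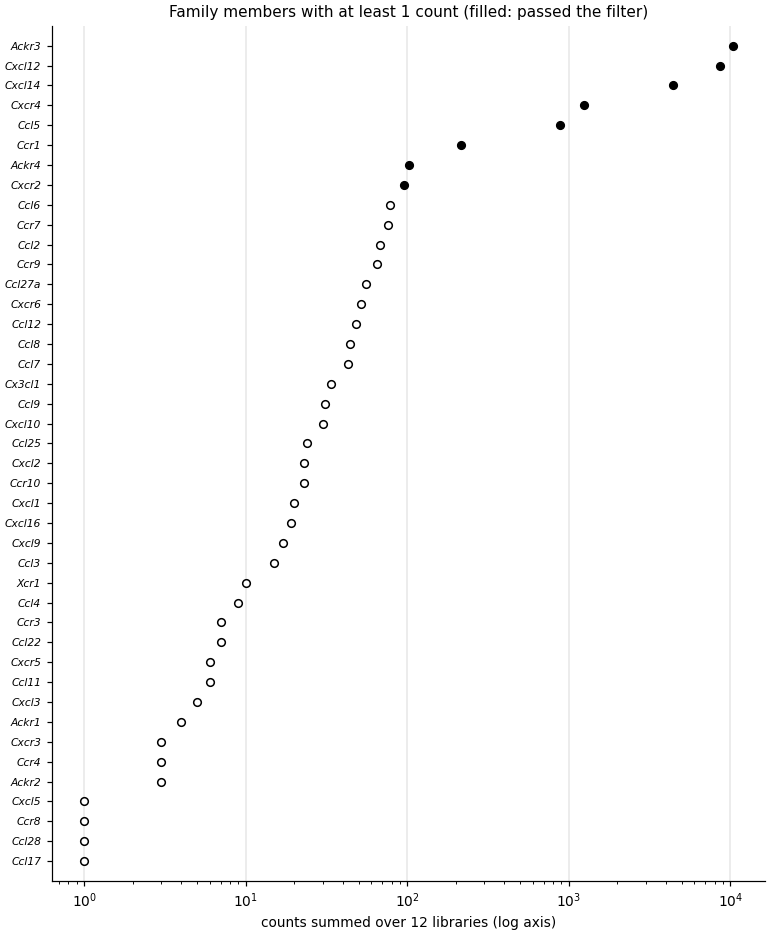
Counts of the chemokine family genes reported here, summed over the 12 tumors (horizontal log axis), for the genes with at least 1 count; filled points passed the low-count filter. Ackr3, Cxcl12 and Cxcl14 lie well above the other genes, and most of the family lies under 100 counts in all.

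A gene was called at a false discovery rate (FDR) of 0.05 if its log2 fold change was also 1.5 or more in size, in 1 edgeR quasi-likelihood fit to all 12 libraries and with Benjamini-Hochberg adjustment over 12897 genes. In trametinib treated tumors compared to control, 1 of the 9 tested family genes was called (Ccr1, lower), against 2.4% of all genes tested, 1.43% in the lower direction. For the combination compared to trametinib, 2 of 9 were called (Ccr1 higher, Cxcl12 lower), against 0.675% of all genes, 0.535% higher and 0.14% lower. Cediranib compared to control gave 0 of 9, against 0% of all genes, and the combination gave 0 of 9 compared to control (3.61% of all genes) and 0 of 9 compared to cediranib (2.45%). These comparisons share control or single-agent tumors and are not independent of each other.

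**Figure D2:**
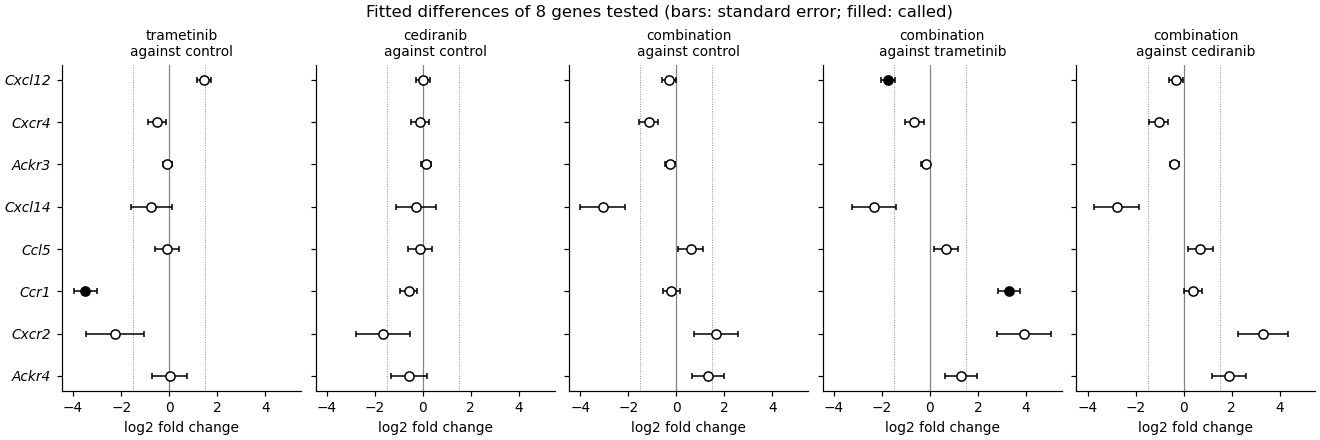
Log2 fold change of 8 tested genes in each comparison (horizontal axis), with bars for 1 standard error, dotted lines at the minimum of 1.5 and filled points for called genes. The filled points are Ccr1 in trametinib against control (-3.49) and, in the combination against trametinib, Ccr1 (3.28) and Cxcl12 (-1.76).

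Cxcl12, the stromal ligand that retains hematopoietic cells in bone marrow and guides vessel growth, lies at chr6:117168535-117181366 on the plus strand and overlaps no other annotated gene. Its level was 46.5, 49.5 and 51.6 CPM in the controls, 145, 137 and 122 CPM after trametinib, 24.7, 67.9 and 56.9 CPM after cediranib, and 39.5, 28.8 and 51.3 CPM after the combination. Every trametinib treated tumor was above every other tumor, while the remaining groups overlapped. The mean was 135 ± 11.9 CPM (SD, n = 3) with trametinib against 49.2 ± 2.57 CPM (SD, n = 3) in controls.

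Compared to control, Cxcl12 was 2.74-fold higher with trametinib, a log2 difference of 1.45 (SE 0.30, FDR 0.014, edgeR), which passed the FDR but fell just short of the minimum fold, so it was not called. With no minimum fold it would count as a second called family gene, where 6.12% of all genes pass. Leaving out trametinib tumor 3 moved it over the minimum (log2 difference 1.51, FDR 0.0345). The FDR rose to 0.0517 without control tumor 1, to 0.051 with an epidermal score as a covariate (log2 difference 1.18) and to 0.105 without the 2 muscle-rich tumors, above the threshold in each case. Addition of cediranib to trametinib left the level 3.38-fold lower than trametinib alone, a log2 difference of -1.76 (SE 0.30, FDR 0.0278, edgeR), and this was called. Cediranib without trametinib gave a log2 difference from control of 0.02 (SE 0.30).

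The FDR of the combination against trametinib lay near the threshold. It ranged from 0.0543 to 0.0995 when any 1 of the 6 libraries was left out, with log2 differences between -1.98 and -1.55, was 0.108 without the 2 muscle-rich tumors, and was 0.922 once an epidermal score entered the model, with a log2 difference of -0.88. Epidermal genes separated these groups, with a mean log2 CPM of 22 such genes between -1.01 and -0.80 after trametinib and between 2.91 and 3.55 after the combination. The part of epidermis in this difference was not tested. In bulk RNA, fewer cells of a type and less RNA per cell cannot be told apart, here and for every gene below.

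Fibroblast markers, from cells known to make Cxcl12, summed to 16470, 36960 and 8130 CPM in the trametinib tumors and to 2066, 7392 and 21120 CPM in the controls, so these groups overlapped. None of the 10 fibroblast markers tested (of 11 listed) was called for trametinib against control, with a median log2 difference of 1.14. With the combination the fibroblast sum was 5347, 2657 and 4979 CPM, below every trametinib tumor, as Cxcl12 was. In that comparison 0 of the 10 markers were called, with a median log2 difference of -1.44. Within the trametinib group the highest library exceeded the lowest 4.55-fold in the fibroblast sum and 1.19-fold in Cxcl12. The part of these cells in the level of Cxcl12 was not tested.

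Cxcr4, the signaling receptor for Cxcl12, lies at chr1:128588199-128592293 on the minus strand. It measured 12.9, 9.53 and 16.4 CPM in controls, 9.26, 9.89 and 8.12 CPM after trametinib, 7.79, 21.5 and 6.41 CPM after cediranib, and 5.55, 6.99 and 4.83 CPM after the combination. The 3 combination treated tumors were all below the controls and below the trametinib tumors, and the second cediranib tumor was the highest of all 12. The log2 difference of the combination from control was -1.16 (SE 0.40, FDR 0.0847, edgeR), which did not pass, and it was -0.05 with the epidermal score as a covariate. From trametinib it was -0.65 (SE 0.40, FDR 0.425).

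Ackr3, the atypical receptor that removes Cxcl12, had the highest counts of the family and the smallest standard errors of the 9 tested genes. Its levels were 77.0, 68.8 and 110.7 CPM in controls, 91.6, 84.7 and 67.9 CPM after trametinib, 95.3, 81.6 and 102.5 CPM after cediranib, and 56.5, 72.9 and 85.5 CPM after the combination. All 4 groups overlapped. The log2 difference from control was -0.07 (SE 0.20) with trametinib, 0.12 (SE 0.20) with cediranib and -0.26 (SE 0.20) with the combination. Neither Cxcr4 nor Ackr3 was called in any of the comparisons.

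**Figure D3:**
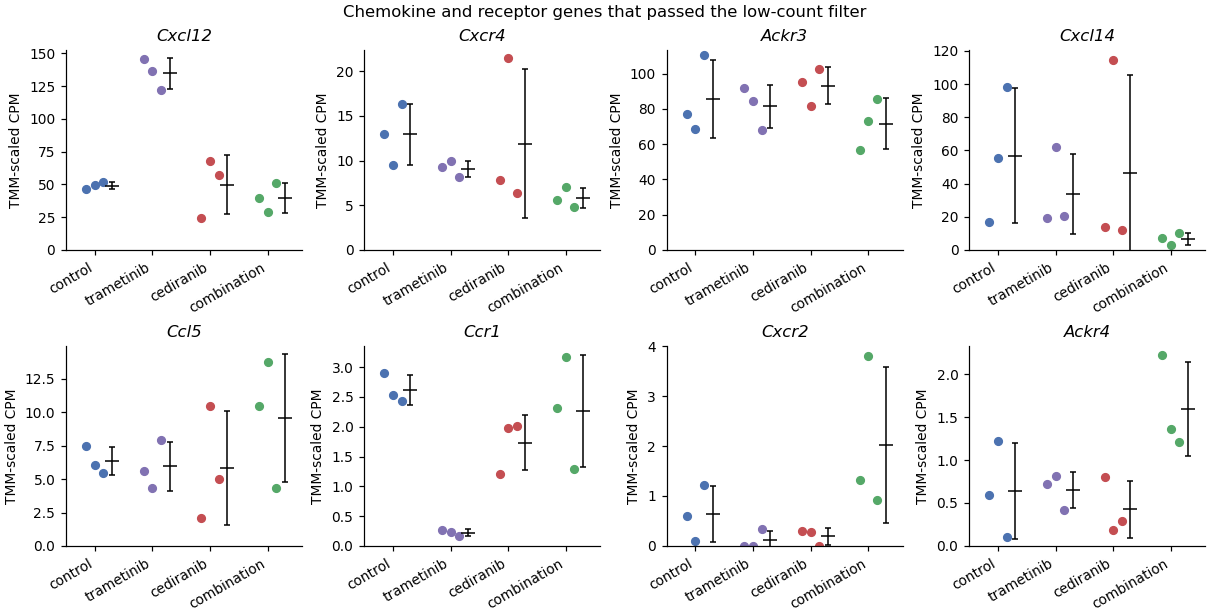
TMM-scaled CPM (vertical axis, from 0) of 8 tested genes in each tumor, by treatment, with the mean and SD of 3 tumors beside the points. Trametinib treated tumors stand above the others in Cxcl12, at 122 to 145 CPM, and below them in Ccr1, at 0.167 to 0.272 CPM.

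Ccr1, a receptor of monocytes, macrophages and neutrophils for Ccl3, Ccl5 and related ligands, lies at chr9:123962124-123968692 on the minus strand and had the largest fitted difference from control among the 9 tested genes. Its counts were 34, 25 and 24 in controls, 3, 2 and 2 after trametinib, 12, 21 and 21 after cediranib, and 23, 35 and 14 after the combination. In CPM these are 2.90, 2.53 and 2.42, then 0.272, 0.233 and 0.167, then 1.20, 1.99 and 2.01, and 2.32, 3.18 and 1.30. The trametinib tumors lay below the 9 others without overlap, at 2 or 3 counts each, whereas combination treated tumors overlapped with the controls.

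With trametinib Ccr1 was 11.2-fold lower than in controls, a log2 difference of -3.49 (SE 0.47, FDR 0.00124, edgeR), and it was called however a single library was left out (log2 difference -3.66 to -3.32). Between the combination and trametinib it was 9.72-fold higher, with a log2 difference of 3.28 (SE 0.47, FDR 0.0196, edgeR). That call was lost without trametinib tumor 1, 2 or 3 (FDR 0.0562, 0.0651 and 0.0683) or combination tumor 2 (FDR 0.0727), without both muscle-rich tumors (FDR 0.0807), and after adding the epidermal score (FDR 0.729), although the log2 difference stayed between 2.97 and 3.56 with single libraries left out and was 3.37 with the score. Cediranib alone gave a log2 difference from control of -0.59 (SE 0.37), and the combination one of -0.21 (SE 0.36).

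Whether cediranib acted differently with and without trametinib was asked with an interaction term. For Ccr1 it was 3.87 on the log2 scale (SE 0.60, unadjusted p = 3.05e-05, FDR 0.185, edgeR) and for Cxcl12 -1.78 (SE 0.42, unadjusted p = 0.00121, FDR 0.504). Neither was called by the quasi-likelihood test, which called 0% of all genes and had 909 genes (7.05%) at an unadjusted p under 0.05. Of the 9 family genes 3 had such a p, the other being Cxcr2. That gene passed the filter mainly through the combination group, so it is no support here. The likelihood ratio test (edgeR) and DESeq2 each called 2 family genes, Cxcl12 and Ccr1, among 28 and 27 genes in all.

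Promoter windows of the called genes, the 250 bases before the start in RefSeq (GRCm38.p6), are shown because both genes were called and their starts differ in base composition. CpG dinucleotides are in capitals, and both windows are written 5′ to 3′ on the strand of the gene.
Cxcl12, plus strand, chr6:117168285-117168534: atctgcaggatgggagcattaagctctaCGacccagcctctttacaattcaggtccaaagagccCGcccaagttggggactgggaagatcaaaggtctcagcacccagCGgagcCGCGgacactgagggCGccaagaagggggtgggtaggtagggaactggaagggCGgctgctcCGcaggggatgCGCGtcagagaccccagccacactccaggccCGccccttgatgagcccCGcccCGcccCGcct
Ccr1, minus strand, chr9:123968693-123968942: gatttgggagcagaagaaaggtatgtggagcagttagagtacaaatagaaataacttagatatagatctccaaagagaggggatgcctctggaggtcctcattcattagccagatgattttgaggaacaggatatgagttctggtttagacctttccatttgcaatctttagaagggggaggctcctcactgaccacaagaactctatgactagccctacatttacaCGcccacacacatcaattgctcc
The Cxcl12 window held 14 CpG, more than 70.6% of 32851 such windows, and that of Ccr1 held 1, more than 7.87%. Over all windows the median was 6, with quartiles of 2 and 16.

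A window was found for 44 of the 60 family symbols and for 7 of the 9 tested genes. The letters of the NF-kB motif, GGG and TTTCC with 2 bases of any kind between them, searched on both strands as were the others, was in 1.41% of all windows and in those of Ccl20, Ccl9, Ccr3, Cxcl1, Cxcl2 and Cxcl3. The AP-1 letters TGANTCA were in 6.75% of windows, including those of Ccl27a, Ccl27b, Ccl9, Ccr3, Ccr4 and Cxcl10, and those of the interferon-stimulated response element, GAAA and GAAA with 2 bases between them, in 2.98%, including Ccl19, Cxcl10 and Cxcl14. Of the tested genes, Cxcl14 held the interferon letters and none held the others, which says only that these letters are not in these windows.

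Ccl5, a ligand of Ccr1 made by T cells, macrophages and platelets, lies in the chromosome 11 group of CC ligands (11 family genes in 1630 kb, of which Ccl5 alone passed the filter). Values of 7.49, 6.08 and 5.46 CPM were found in controls, 5.63, 4.31 and 7.95 CPM after trametinib, 2.10, 10.5 and 4.98 CPM after cediranib, and 10.5, 13.8 and 4.36 CPM after the combination. All groups overlapped. The largest of its differences from control was 0.59 on the log2 scale (SE 0.51, FDR 0.494) for the combination.

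Macrophage markers are given beside Ccr1 because these cells carry the receptor. The 14 markers summed to 414 to 710 CPM in controls, 319 to 447 CPM with trametinib, 300.0 to 465 CPM with cediranib and 188 to 327 CPM with the combination, which was the lowest in the marker sum but not in Ccr1. In trametinib treated tumors compared to control 0 of the 14 markers were called, with a median log2 difference of -0.33. Fcgr1 and Cd68 fell in the combination compared to control. Neutrophil markers were few. Ly6g, Elane and Retnlg were at 0 in all 12 libraries, which poor capture can also give, and S100a8 did not exceed 0.272 CPM. Csf3r of this list was not tested. It was at 0.10 to 0.40 CPM in controls, 0.17 to 0.64 CPM with trametinib, 0.10 to 0.85 CPM with cediranib and 0.56 to 1.21 CPM with the combination. The sum of the 12 neutrophil markers was 8.60 to 24.2 CPM in controls, 2.43 to 4.89 CPM with trametinib, 11.3 to 71.8 CPM with cediranib and 7.88 to 11.9 CPM with the combination. Mmp9 made up most of it in every tumor but combination tumor 2 (4.72 of 10.1 CPM). This protease, which other cells also make, was the only 1 of the 3 tested markers called with trametinib. The part of either cell type in the level of Ccr1 was not tested.

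**Figure D4:**
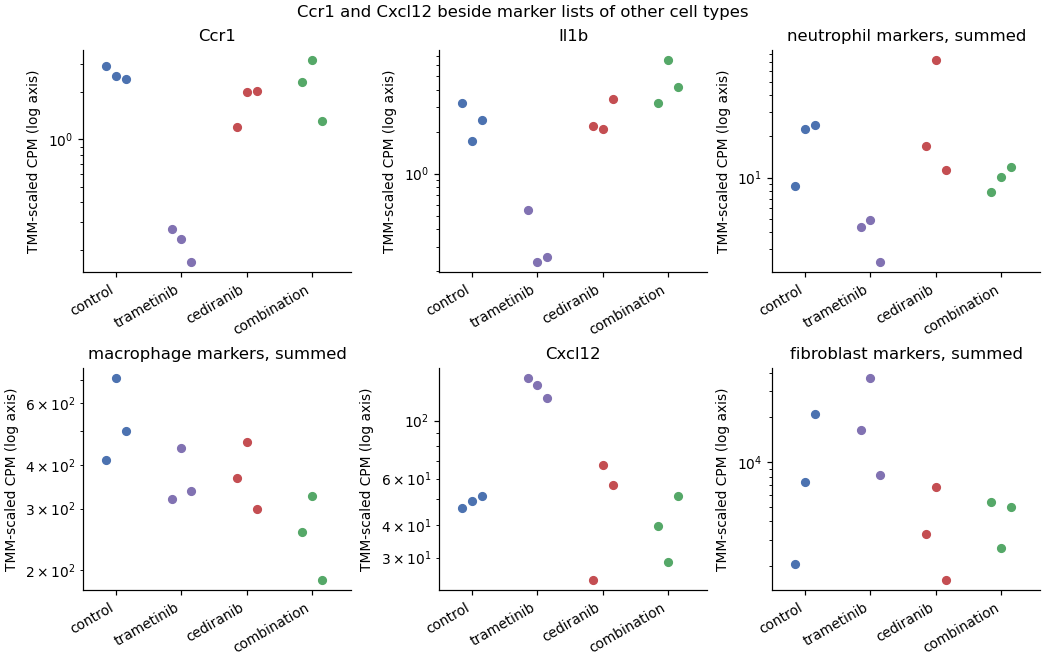
TMM-scaled CPM (vertical log axes) in each tumor, by treatment, for Ccr1, Il1b, the summed neutrophil and macrophage markers, Cxcl12 and the summed fibroblast markers. Ccr1, Il1b and the neutrophil sum are lowest in the 3 trametinib treated tumors, while the macrophage and fibroblast sums of that group overlap with controls. Most of the neutrophil sum in the trametinib tumors and in the controls is Mmp9, which other cells also make.

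Cxcr2, the neutrophil receptor for Cxcl1, Cxcl2 and related ligands, lies at chr1:74153989-74160610 on the plus strand. Its counts were 7, 1 and 12 in controls, 0, 0 and 4 after trametinib, 3, 3 and 0 after cediranib, and 13, 42 and 10 after the combination. The combination treated tumors exceeded those given either agent alone, but the lowest of them, at 0.928 CPM, was below the highest control at 1.21 CPM. Of the 4 libraries with at least 10 counts 3 were combination treated, so the gene passed the filter largely through that group. The log2 difference was 3.91 (SE 1.12, FDR 0.103) from trametinib, 3.31 (SE 1.06, FDR 0.0807) from cediranib and 1.65 (SE 0.91, FDR 0.269) from control, and none of these was called by the quasi-likelihood test of edgeR. The likelihood ratio test called it against cediranib (FDR 0.0222) and against trametinib (FDR 0.0119), and DESeq2 called both as well (FDR 0.0416 and 0.0312). With only 4 counts in the trametinib group the size of that difference is uncertain. It ranged from 3.08 without combination tumor 2 to 7.40 without trametinib tumor 3, which leaves 0 counts in the group. In the same tumors S100a9, a calcium-binding protein of myeloid cells and stressed epidermis, rose from at most 0.255 CPM in controls to 1.21 to 2.00 CPM with the combination (log2 difference 3.91, SE 0.96, FDR 0.0261).

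The ligands of Cxcr2 were near the limit of detection. Cxcl1 had at most 4 counts in a library and Cxcl3 at most 2. Cxcl2 reached 12 counts in the third combination tumor and at most 3 elsewhere. Cxcl5 had 1 count in all, and Cxcl15 and the second neutrophil receptor Cxcr1 had 0.

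Cxcl14, a chemokine that epithelia and stroma produce constitutively, lies at chr13:56288643-56296305 on the minus strand and was the most variable of the abundant genes. It measured 16.8, 55.4 and 98.3 CPM in controls, 19.4, 61.8 and 20.7 CPM after trametinib, 13.8, 114 and 11.9 CPM after cediranib, and 6.97, 3.09 and 10.2 CPM after the combination. Each combination treated tumor was below all 9 others. The highest library exceeded the lowest 5.86-fold among controls, 3.18-fold with trametinib, 9.63-fold with cediranib and 3.31-fold with the combination.

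For the combination the log2 difference of Cxcl14 was -3.07 from control (SE 0.94, FDR 0.0594), -2.32 from trametinib (SE 0.93, FDR 0.218) and -2.79 from cediranib (SE 0.94, FDR 0.0946), none of them called by the quasi-likelihood test of edgeR. Against control the call was made by the likelihood ratio test (FDR 0.00887), by DESeq2 (FDR 0.0176), in a fit to the 6 libraries of these 2 groups (FDR 0.0255) and without the first control tumor (FDR 0.0387). Leaving out the third control tumor reduced the difference to -2.42, and with an epidermal score in the model it turned to 0.35. Without the second cediranib tumor the difference from cediranib shrank to -0.93 (FDR 0.536). Without the second trametinib tumor the difference from trametinib was -1.57 (FDR 0.488). The library highest in Cxcl14 was also the highest in fibroblast markers in 3 of 4 groups. The part of either cell type was not tested.

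Ackr4, the atypical receptor that removes Ccl19, Ccl21 and Ccl25, lies at chr9:104084157-104126933 on the minus strand and overlaps Acad11 on the other strand, so reads of Acad11 may be included if strand was ignored in counting. Its counts were 7, 12 and 1 in controls, 8, 7 and 5 after trametinib, 8, 2 and 3 after cediranib, and 22, 15 and 13 after the combination. Only the combination tumors all held more than 12 counts, and in CPM their lowest value of 1.21 was below the highest control at 1.22. Of the 4 libraries with at least 10 counts 3 were combination treated, so Ackr4 too passed the filter mainly through the group in which it was high. Its log2 difference was 1.89 from cediranib (SE 0.71, FDR 0.132) and 1.31 from control (SE 0.68, FDR 0.239). Of its ligands, Ccl19 and the Ccl21 genes had 0 counts and Ccl25 at most 5.

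With cediranib as the only agent, 0 of the 9 family genes had an unadjusted p under 0.05, when 557 of all genes did, and the smallest FDR of any gene was 0.999 (edgeR). The likelihood ratio test and DESeq2 also called 0 of these 9, with 14 and 9 genes called in all. Among the 8 genes described, the log2 differences from control ran from -1.66 for Cxcr2 (SE 1.13) to 0.12 for Ackr3 (SE 0.20). In the comparison of the combination with control, 2 of the 9 family genes had an unadjusted p under 0.05 (Cxcl14 and Cxcr4), as did 27.2% of all genes, and the other tools called 1, Cxcl14. Against cediranib Cxcl14 and Cxcr4 had such a p, as did 23.1% of all genes. Without the second cediranib tumor their log2 differences were -0.93 and -0.295 (FDR 0.536 and 0.607), against -2.79 and -1.04 with all libraries. Cxcr2 and Ackr4 also had such a p, but these passed the filter mainly through the combination group and a count of them is no support. The other tools called Cxcr2 and Cxcl14 there.

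The remaining 56 family genes did not pass the filter, 22 of them with 0 counts in all libraries, 14 with at most 3 counts in any library and 20 with a highest count between 4 and 15. Ccl2, the main attractant of monocytes, had 4, 9 and 12 counts in controls, 0, 1 and 3 with trametinib, 6, 7 and 6 with cediranib and 7, 11 and 2 with the combination. Ccl7, a neighbour of Ccl2 with a like function, had 10, 4 and 4 counts in controls, 2, 0 and 1 with trametinib, 4, 6 and 8 with cediranib and 2, 2 and 0 with the combination. Over the 3 tumors of a group, Ccl2 totalled 25 counts in controls, 4 with trametinib, 19 with cediranib and 20 with the combination. For Ccl7 the totals were 18, 3, 18 and 4 in the same order. Neither gene passed the filter, so these differences were not tested, and how many of all genes differ likewise was not counted.

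Ccl12, a further monocyte ligand, had 5, 10 and 2 counts in controls, 1, 1 and 4 with trametinib, 11, 4 and 5 with cediranib and 1, 3 and 1 with the combination, and trametinib overlapped with control. Ccl8 had 6, 6 and 3 counts, then 3, 3 and 8, then 6, 2 and 3, and 3, 1 and 0 with the combination. Both are short genes, which is why they rank high per kilobase.

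Cx3cl1, the membrane-bound chemokine of endothelium and epithelium, had 1, 5 and 4 counts in controls, 3, 4 and 3 with trametinib, 4, 6 and 4 with cediranib and 0 in all 3 combination treated tumors. A count of 0 over 3 tumors allows up to 3 counts, against 10, 10 and 14 counts in the other groups. The quasi-likelihood test without the filter called it for the combination against control (as 3.88% of all genes) and against cediranib (2.19%), a setting in which 29102 genes enter the fit. In that setting the FDR of Cxcl14 for the combination against control went from 0.0594 to 8.12e-43 at nearly the same fold. Calls made there, that of Cx3cl1 included, are therefore not relied on.

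Other ligands that did not pass, with their highest count in a library, were Ccl6 (12), Ccl27a (9), Cxcl10 (7), Cxcl9 (7), Cxcl16 (7), Ccl9 (6), Ccl25 (5), Ccl3 (4), Ccl11 (4), Ccl4 (2), Ccl22 (2), Ccl17 (1) and Ccl28 (1). Cxcl9 and Cxcl10, ligands induced by interferon, had 0 and 1 counts in the 3 controls together, 8 and 13 with trametinib, 5 and 6 with cediranib and 4 and 10 with the combination. By tumor, Cxcl10 had 1, 0 and 0 counts in controls, 6, 4 and 3 with trametinib, 0, 6 and 0 with cediranib and 2, 7 and 1 with the combination. Since a 0 allows up to 3 counts, most of these values cannot be told from 0. Ccl27a, a skin ligand for memory T cells, overlaps Il11ra1 on the opposite strand, Cxcl10 overlaps Art3, Cxcl16 overlaps Zmynd15 and Ccl25 overlaps Elavl1, so their low counts may come from these neighbours.

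Receptors below the filter were Ccr7 (15), Ccr9 (15), Cxcr6 (8), Ccr10 (7), Ccr4 (3), Xcr1 (3), Cxcr5 (2), Cxcr3 (1), Ccr3 (1) and Ccr8 (1), with the highest count in brackets, and the atypical receptors Ackr1 (2) and Ackr2 (2). Ccr7, which brings dendritic cells and T cells to lymph nodes, had 23 counts over controls, 8 with trametinib, 24 with cediranib and 21 with the combination. Ccr9, Cxcr6 and Ccr10 overlap other genes on the opposite strand. Lymphocyte markers were scarce too, since 13 T and NK cell markers summed to between 2.69 and 8.44 CPM and B cell markers to at most 0.899 CPM. Ligands with 0 counts were Ccl1, Ccl19, Ccl20, Ccl21a, Ccl21b, Ccl21c, Ccl24, Ccl26, Ccl27, Ccl27b, Cxcl13, Cxcl15, Cxcl17 and Xcl1, and receptors with 0 counts were Ccr1l1, Ccr6 and Cxcr1. Copies of Ccl19, Ccl21 and Ccl27 are nearly identical, and reads that match several of them may not have been counted, so their 0 is uncertain.

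Genes that act with the family were described from lists written with earlier results of these data known. The shares of all genes called, to set beside the counts of each list, were 2.4% for trametinib against control (1.43% lower) and 3.61% for the combination against control. For the combination against trametinib the share was 0.675%. MAPK output genes, which report the target of trametinib, were lower than control for 10 of 19 tested with trametinib, led by Egr1 (log2 difference -4.49), Dusp4 (-3.95) and Dusp6 (-3.70), with a median of -2.19 against 0.01 over all genes. Of the chemokine receptor signaling genes, 28 were tested and 2 were lower with trametinib, against 1.43% of all genes. Ptk2b, a calcium-activated kinase downstream of chemokine receptors, was at 75.7, 82.0 and 76.3 CPM in controls and 11.3, 10.4 and 4.86 CPM with trametinib, a log2 difference of -3.15 (SE 0.27, FDR 7.25e-05). It stayed low with the combination, at 11.7, 15.3 and 18.0 CPM (log2 difference from control -2.37, FDR 0.000475), unlike Ccr1. Pik3cg, the phosphoinositide kinase that G protein subunits activate, fell by 1.99 on the log2 scale with trametinib (SE 0.39, FDR 0.0109). The median of this list was -0.31 with trametinib and -0.22 with the combination.

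Among 19 tested genes of chemokine processing and display, which cover proteases and heparan sulfate enzymes, Mmp9 was lower with trametinib (log2 difference -2.66, SE 0.72, FDR 0.0497) and 0 were called with the combination compared to control. The list's median was 0.06 with trametinib and 0.01 with the combination. Of 13 tested interferon response genes 0 were called with trametinib, where the median was 0.57, and Ifit1 rose with the combination compared to control (log2 difference 2.13, SE 0.46, FDR 0.0155), where the median was 0.68.

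Among 14 tested genes of NF-kB and the inflammatory cytokines that induce chemokines, Il1b, the macrophage cytokine interleukin-1 beta, was called with trametinib. Il1b was at 3.24, 1.72 and 2.42 CPM in controls, 0.545, 0.233 and 0.251 CPM with trametinib, 2.20, 2.08 and 3.45 CPM with cediranib, and 3.23, 6.54 and 4.18 CPM with the combination. As with Ccr1, the trametinib tumors lay below all others and the combination did not. The log2 difference of Il1b was -2.79 for trametinib against control (SE 0.47, FDR 0.00448) and 3.70 for the combination against trametinib (SE 0.46, FDR 0.0196). Nfkbiz, an inducible regulator of NF-kB, was also higher in the combination than with trametinib (log2 difference 1.82, SE 0.37, FDR 0.0462). The median of the list was -0.11 for the former comparison and 0.31 for the latter, against 0.01 and -0.01 over all genes.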

How the data were processed

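RNA from 12 SVR tumors, 3 per treatment, was grouped by sample title. The deposited values were raw counts per gene, which the authors made without normalization by aligning to GRCm38 with STAR 2.7.1a in 2-pass mode and counting with featureCounts 1.6.0 after bcl2fastq 1.8.4. Strand handling and the annotation release are not stated in the labels or methods. All columns belonged to samples of the series (0 left over), and no libraries were identical.

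Genes were filtered with filterByExpr (minimum count 10, minimum total 15), which left 12897, or 23.8%. TMM factors and the quasi-likelihood test of edgeR 4.0.16 in R 4.3.3 were applied to all 12 libraries, with contrasts between treatments and an interaction term. Total counts were 9478865 to 11666094 and the biological coefficient of variation was 27.2%. CPM per kilobase used the gene length in the table, which equalled the merged exon length in GENCODE M21 for 97.3% of identifiers. Coordinates are those of the table, and promoter windows come from RefSeq (GRCm38.p6). The fit was tested on simulated data.

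The members and lists were chosen with earlier results of these data known. All 12 values are given for family genes called in a contrast and the 8 highest per kilobase, and the others tested were added after their values were seen. From each list at most 3 called genes are named. A tested family gene is not reported here. Alternatives were other scaling, no filter, the likelihood ratio test, DESeq2 1.42.0, fits to 2 groups, a replicate block, an epidermal score, no minimum fold and leaving out libraries.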

Additional observations from a re-analysis of the deposited data

How the results depend on the processing

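Shares in brackets are those of all genes called in the same setting. The number of family genes tested was 9, except with no filter (43), in fits to 2 groups (7 to 9) and with libraries left out (12 to 14). The count of family genes called for trametinib against control was 1, and 2 with no minimum fold (6.12%, Cxcl12 and Ccr1). For the combination against control it was 0, and 2 with no filter on low counts (3.88%, Cx3cl1 and Cxcl14), 1 with the likelihood ratio test (5.33%), 1 with DESeq2 (4.74%) and 1 in a fit to these 2 groups alone (4.04%), Cxcl14 each. For the combination against trametinib it was 2, and 4 with no filter (2.66%, Cxcr2 and Cxcl14 in addition), 3 with the likelihood ratio test (3.11%) and 3 with DESeq2 (2.69%), each with Cxcr2 in addition, 0 with the epidermal score (0%) and 0 without the 2 muscle-rich tumors (0.0528%), a setting chosen after the data were seen. For the combination against cediranib it was 0, and 3 with no filter (2.19%, Cxcr2, Cx3cl1 and Cxcl14), 2 with the likelihood ratio test (3.43%) and 2 with DESeq2 (3.09%). The interaction gave 0, and 4 with no filter (0.897%), 2 with the likelihood ratio test (0.217%) and 2 with DESeq2 (0.209%). Leaving out single libraries gave 1 to 2 genes for trametinib against control (1.74% to 2.16%, with 2 genes without the third trametinib tumor). It gave 0 to 1 for the combination against control (1.77% to 4.29%) and 0 to 1 for the combination against trametinib (0% to 0.157%). Cxcr2 passed the filter mainly through the combination group, so its part in these counts is no support. With no filter the FDR of Cxcl14 for the combination against control was 8.12e-43, against 0.0594 in the main fit at a like fold, so counts in that setting are not relied on. The cause of these changes was not tested.

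Of the fold changes of the 8 genes described, 38 values under an alternative turned in sign, 23 of them when a library was left out, 25 were newly called, 14 lost a call and 719 kept both. None of the called differences turned in sign under these alternatives. With the epidermal score the log2 difference from control turned for Ackr3 with trametinib (0.009), for Cxcr4 (0.248), Ccl5 (0.179) and Cxcl14 (0.839) with cediranib, and for Cxcl12 (0.299) and Cxcl14 (0.345) with the combination. It also turned against trametinib for Cxcr4 (0.989) and Cxcl14 (2.26), against cediranib for Cxcl12 (0.004), and in the interaction for Cxcr4 (0.741) and Cxcl14 (1.421). Without the 2 muscle-rich tumors it turned for Ccl5 with trametinib (0.067) and for Ackr3 (-0.014) and Ackr4 (0.22) with cediranib.

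With single libraries left out, ranges that crossed 0 for trametinib against control were -0.205 to 0.157 for Ackr3, -0.47 to 0.824 for Ackr4, and -0.361 to 0.098 for Ccl5. For cediranib against control they were -0.011 to 0.352 for Ackr3, -1.378 to 0.224 for Ackr4, -0.841 to 0.283 for Ccl5, -0.27 to 0.343 for Cxcl12, -2.146 to 0.372 for Cxcl14 and -0.866 to 0.167 for Cxcr4. The others were Ccr1 in the combination against control (-0.532 to 0.065) and Cxcr4 in the interaction (-0.805 to 0.217).

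Replicate numbers are shared between groups but did not pair the tumors. Of 18 pairs with the same number 3 correlated over 0.1 in their deviations from the group means (r from -0.219 to 0.356, against -0.438 to 0.354 for different numbers). With a replicate block the counts of called family genes were 1 for trametinib against control (2.33% of all genes) and 2 for the combination against trametinib (0.442%), with the same genes. They were 0 elsewhere (0% to 3.46% of all genes), and Cxcl12 turned to -0.018 for cediranib against control. With scaling by library totals alone the median of all genes was 0.13 for the combination against control and 0.004 to 0.119 elsewhere. In the main fit these medians were 0.002 and -0.01 to 0.006. Summed levels over groups of family genes were planned but not run. None of the 34 untested genes with a count exceeded 15 counts in a library. They did not pass the filter of the main fit, though some did when a library was left out.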
